A study of Mus musculus with 12 samples.

Results

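The mRNAs of 10 genes of the actin cytoskeleton were followed through mouse oocyte growth and meiotic maturation, in wild-type (WT) oocytes and in oocytes lacking the RNA-binding proteins ZAR1 and ZAR2. The genes are Actb and Actg1, which encode the cytoplasmic β- and γ-actin, Cfl1, Pfn1 and Cap1, whose products bind actin monomers and drive their turnover, Fmn2, Spire1 and Spire2, which encode nucleators of straight filaments, and Actr2 and Actr3, which encode ARP2 and ARP3 of the ARP2/3 complex. They were chosen by name. All 10 were listed among the 23230 genes of the deposited table, and all 10 were among the 11502 genes that reached 1 FPKM in at least 1 library and entered the tests.

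Growing oocytes, fully grown oocytes arrested at the germinal vesicle (GV) stage and ovulated oocytes, labelled metaphase II (MII), were collected from WT and Zar1/2-null females of a C57BL6/ICR hybrid strain. The labels give an age of 13.5 days for the growing oocytes and of 21 days for the GV oocytes, taken 44 h after PMSG, a gonadotropin that drives follicle growth. MII oocytes were taken 16 h after hCG, the ovulating hormone, and no age is labelled for them. By the study's methods, the females that gave ovulated oocytes had also received PMSG before hCG, the growing oocytes came from slightly younger mice than labelled, and the GV oocytes came from mice of a range of ages. Each of the 6 groups had 2 libraries of 10 pooled oocytes. The labels name no further treatment and do not say whether the 2 libraries came from separate animals, so p-values measure only the spread between these libraries. The null alleles were made with CRISPR/Cas9 and carry small deletions with a frame shift or a stop, so that RNA of the deleted genes can remain. The ovulated oocytes are called MII as labelled. The study describes many ovulated null oocytes as not having completed the first meiotic division, so at MII the effect of genotype and a difference in meiotic stage cannot be told apart.

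Actin filaments grow from monomers that carry ATP. Profilin (PFN1) feeds monomers to growing ends, cofilin (CFL1) severs old filaments, and the cyclase-associated protein CAP1 helps to recycle the monomers that cofilin frees. In the mouse oocyte, formin-2 (FMN2) works together with SPIRE1 and SPIRE2 to build the cytoplasmic actin mesh that moves the spindle to the cortex and allows the first polar body to form, and the ARP2/3 complex builds branched filaments that help to hold the spindle and form the cortical cap. The oocyte is transcriptionally silent once fully grown, so its mRNAs are stored, translated or degraded, and their 3′ ends matter: the cleavage hexamer AATAAA or ATTAAA and the cytoplasmic polyadenylation element (CPE, TTTTAT or TTTTAAT in DNA letters) steer the tail length of maternal mRNAs.

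The ends of the 3′ UTRs are therefore shown for the members, other than Spire1, whose longest coding transcript has a cleavage hexamer in its last 100 bases (mm9 build, GENCODE annotation, transcript strand, 5′ to 3′). Capitals mark the last hexamer of the transcript and, in Actr2 alone of those shown, the CPE. The windows lie at chr5:143664816-143664845 (Actb, minus strand), chr11:120207017-120207046 (Actg1, minus), chr19:5493991-5494020 (Cfl1, plus), chr11:70465363-70465392 (Pfn1, minus), chr1:176752820-176752848 (Fmn2, plus), chr11:19962321-19962350 (Actr2, minus), chr1:127289493-127289522 (Actr3, minus) and chr4:122536310-122536339 (Cap1, minus), all in the last exon.
Actb: ctgtacactgacttgagaccAATAAAagtg
Actg1: aacacgtcattgtgtaaagaAATAAAagtg
Cfl1: acaaaacaaaacaaaaaaacAATAAAaagg
Pfn1: tttttttttttttttttctgAATAAAaaaa
Fmn2: aggatgttaatttatatgaaAATAAAatg
Actr2: tacttctTTTTAATtaagaaAATAAAtaag
Actr3: agaaaaagtgatgacaataaATTAAAattg
Cap1: taaaattatacagaaaatagAATAAAgtta

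Actr3 was the only one of the 8 whose last hexamer was the variant ATTAAA. Its window also holds an AATAAA that overlaps the marked site by 1 base and is otherwise in lower case. A CPE stood within the last 100 bases of the 3′ UTR in 2 of the 10 genes, Actr2 and Spire1, against 20.1% of the 10077 annotated 3′ UTRs of at least 100 bases among the tested genes. In Spire1 the element was TTTTAT, 45 bases before the annotated end, it was followed by the hexamer AATAAA, and its sequence is not shown. The annotated 3′ UTR of Spire2 was 121 bases long and held neither a CPE nor a hexamer in that window. That share is close to the background. Both CPE-bearing genes encode filament nucleators, but the nucleator genes Fmn2, Spire2 and Actr3 had no CPE in that window. None of the 5 genes for actin and its monomer partners had one there either. Farther upstream in the 3′ UTR, Actb and Fmn2 had 2 copies each and Actr3 had 3. A match of letters is a description and not a mapped binding site.

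Sequence also bears on how well each gene could be measured, since the authors used reads of 50 bases and kept only those that mapped to 1 place. Actb and Actg1 share 88.65% of their 1128 coding bases (1000 identical). Of the 50-base stretches of the Actg1 transcript, 96.7% had an exact copy elsewhere in the mm9 genome, against 52.4% for Actr3, 36.2% for Cfl1, 16.4% for Actr2, 15.4% for Actb and 4.52% for Cap1. No such copy was found for Pfn1, Fmn2, Spire1 or Spire2. The levels of Actg1 and Actr3 against other genes are therefore uncertain, while the copies are the same in every library.

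The deposited values are FPKM scaled by the ERCC spike-in, a mix of synthetic RNAs given to every lysate in the same amount, and are written below as FPKM. Differences are log2 fold changes of log2(FPKM + 1) ± standard error (SE), tested with limma and adjusted by Benjamini-Hochberg over all genes tested. The factor was 1 in both WT growing libraries and between 0.225 and 0.862 in the others. Between about 10300000 and 13900000 fragments lay behind each library, estimated from the steps between low values. The Zar2 gene, listed as Zar1l, had 639 and 644 FPKM in WT and 17.5 and 13.2 FPKM in Zar1/2-null growing oocytes and was lower in null libraries at each stage. Zar1 RNA remained in every null library. The summed level of 12 oocyte markers lay between 3647 and 17850 FPKM, and that of 15 granulosa and cumulus cell markers between 4.36 and 28.3 FPKM, with 10 to 14 of the 15 under 1 FPKM in both libraries of a group and the remainder led by Cyp19a1. In pooled, lysed oocytes, fewer contributing cells and less RNA per cell cannot be told apart.

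The 10 mRNAs differed widely in level. As deposited, in WT GV oocytes the cofilin gene Cfl1 was highest, with 370 ± 22.8 FPKM (SD, n = 2 here and below), followed by Pfn1 with 183 ± 1.94 FPKM and Actg1 with 130.4 ± 25.3 FPKM. Actr3 (57.3 ± 6.60 FPKM), Spire1 (52.9 ± 6.30 FPKM), Actb (52.7 ± 9.54 FPKM) and Actr2 (44.3 ± 8.20 FPKM) came next, and each of these overlapped with its neighbour in the libraries. Fmn2 had 23.0 ± 0.896 FPKM, Cap1 3.28 ± 0.311 FPKM and Spire2 1.90 ± 0.342 FPKM. Spire2 was far below its relative Spire1. The places of Actg1 and Actr3 in this order are uncertain for the copied stretches given above. The order was different at MII in WT: Cfl1 stayed first with 51.0 ± 18.3 FPKM, but Spire1 (22.2 ± 1.24 FPKM) and Actr2 (20.6 ± 2.85 FPKM) now stood above Pfn1 (17.0 ± 1.06 FPKM), Actb (7.24 ± 1.03 FPKM) and Actg1 (4.42 ± 0.486 FPKM).

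**Figure D1:**
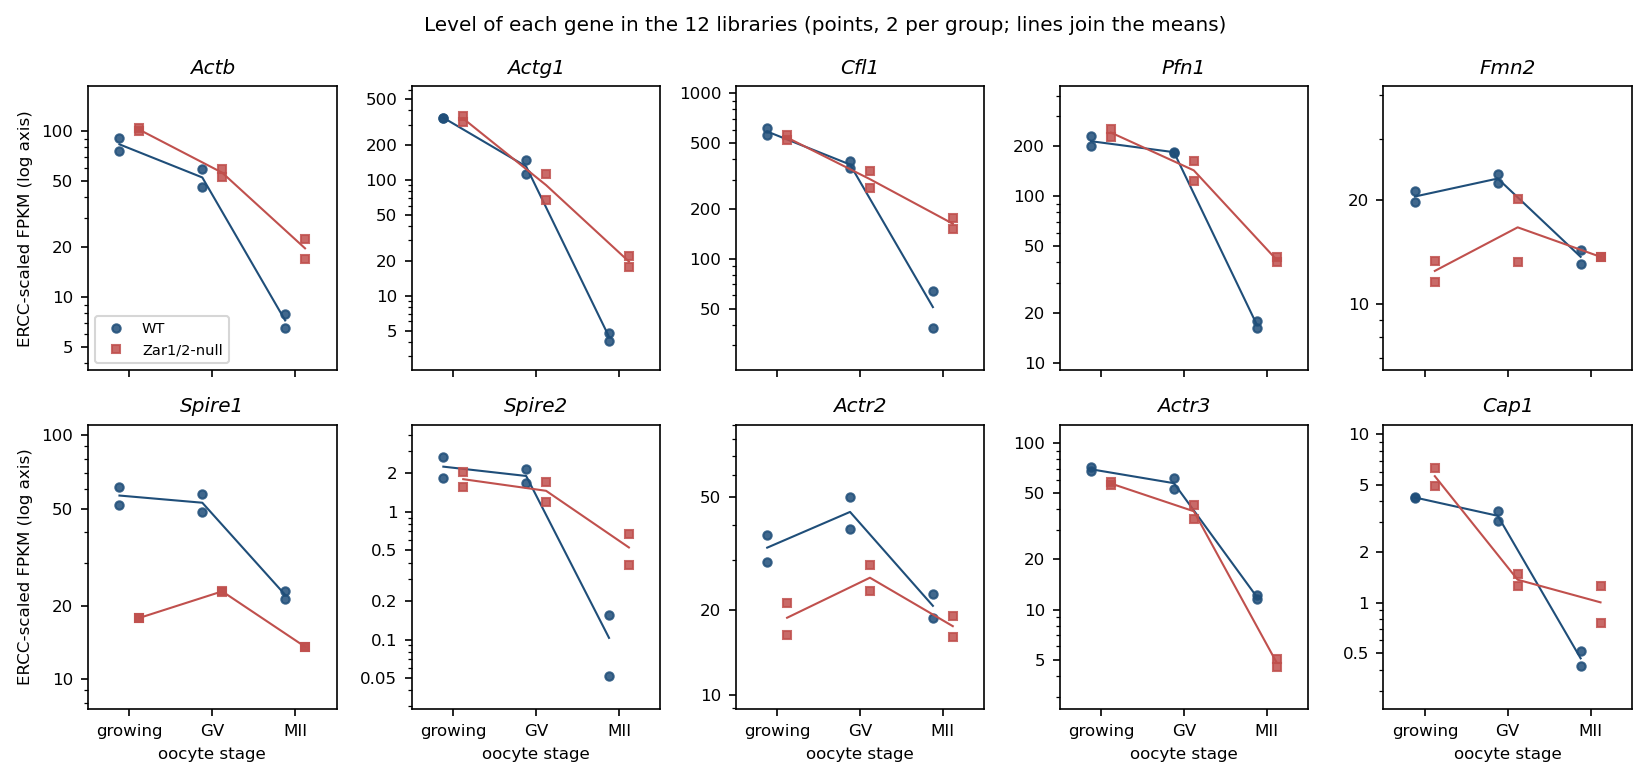
Level of each of the 10 genes in the 12 libraries, as ERCC-scaled FPKM on a log axis that differs between panels, by oocyte stage; circles are WT and squares Zar1/2-null libraries, and lines join the means of 2. The WT lines of Actb, Actg1, Cfl1 and Pfn1 drop below the null lines at MII, while those of Spire1 lie above the null lines at all 3 stages.

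The first comparison asked whether the actin genes themselves depended on ZAR1/2. Actb had 91.2 and 75.9 FPKM in WT growing oocytes, 59.5 and 46.0 FPKM at GV and 6.51 and 7.97 FPKM at MII. In Zar1/2-null oocytes it had 104 and 100.4 FPKM, then 59.3 and 53.4 FPKM, then 22.5 and 17.0 FPKM. The null libraries lay above WT without overlap in growing oocytes and at MII, and only the MII difference passed the test (1.32 ± 0.19, SE, against 0.30 with adjusted p = 0.247 in growing oocytes, limma). Actg1, whose level against that of Actb is uncertain for the shared sequence given above, went from 343 and 344 FPKM in WT growing oocytes to 148 and 112 FPKM at GV and 4.08 and 4.77 FPKM at MII. Its null libraries held 359 and 318 FPKM, then 67.3 and 113 FPKM, then 21.9 and 17.6 FPKM. The genotypes overlapped before maturation and stood apart at MII, where the null level was 4.46 times the WT level (1.93 ± 0.23, SE, adjusted p = 6.52e-05, limma).

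Of the genes for the monomer-binding partners, Cfl1 and Pfn1 were higher in the null at MII, as the actins were. At MII, the WT libraries had 38.1 and 63.9 FPKM of Cfl1 and the null libraries 150.5 and 175 FPKM, with no overlap. That was 3.19-fold higher in the null (1.70 ± 0.22, SE, adjusted p = 0.000127, limma). Before maturation it had 559 and 613 FPKM in WT growing and 386 and 354 FPKM in WT GV oocytes, against 522 and 555 FPKM and 267 and 337 FPKM in the null. Both null pairs were the lower, and neither difference passed the test (adjusted p = 0.709 and 0.289, limma). Pfn1, the profilin gene, had 16.2 and 17.7 FPKM in the WT libraries of that stage and 40.1 and 42.9 FPKM in those of the null, again with no overlap (1.24 ± 0.16, SE, adjusted p = 0.000126, limma). At the earlier stages its libraries were between 124 and 254 FPKM in all 4 groups and no difference between genotypes passed the test. Without the ERCC factor the differences at MII remained, with log2 fold changes of 1.17 for Actb, 1.86 for Actg1, 1.47 for Cfl1 and 1.04 for Pfn1 (adjusted p = 8.69e-05, 5.33e-06, 0.000162 and 0.000251, limma).

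Cap1 followed another course. It had 4.27 and 4.17 FPKM in WT growing oocytes, 3.06 and 3.50 FPKM at GV and 0.420 and 0.514 FPKM at MII. The null libraries had 4.95 and 6.35 FPKM, then 1.48 and 1.26 FPKM, then 0.755 and 1.25 FPKM. They lay above WT in growing oocytes, below it at GV and above it again at MII, without overlap at any stage, and only the GV difference passed the test (-0.85 ± 0.16, SE, adjusted p = 0.00153, limma). Without the ERCC factor the GV difference was -0.62 and did not pass (adjusted p = 0.106, limma).

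**Figure D2:**
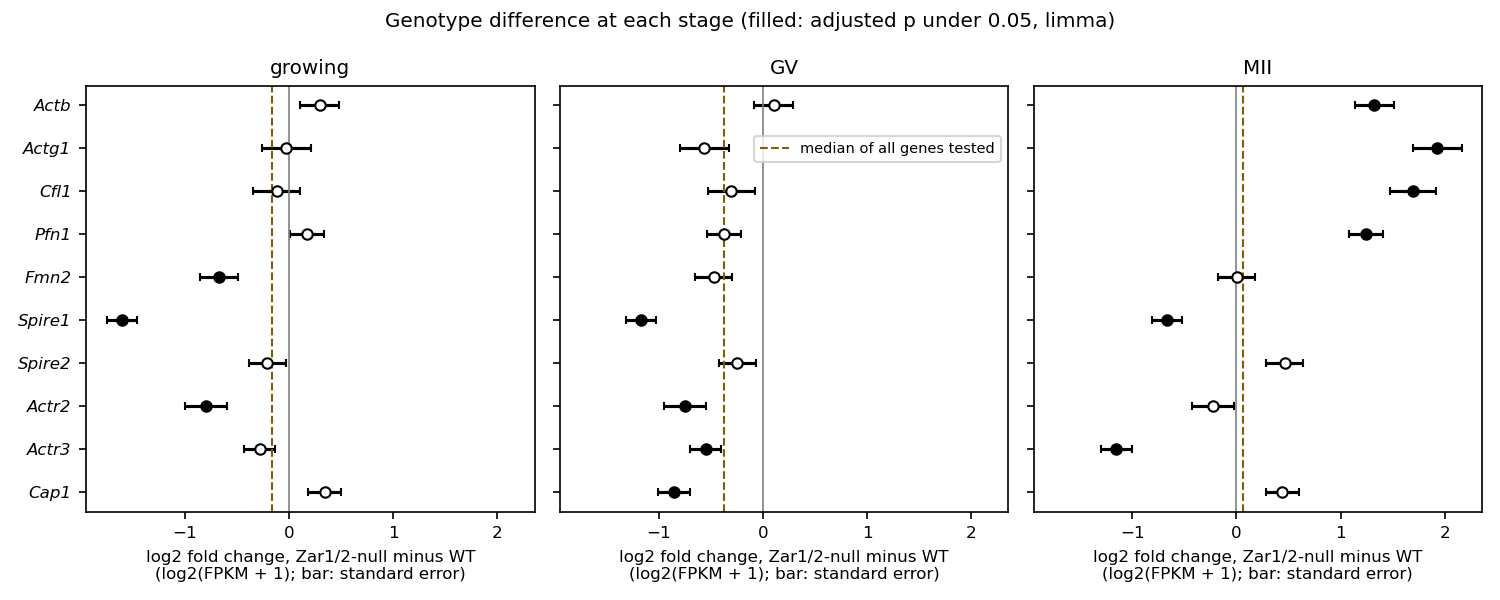
Log2 fold change of each gene between Zar1/2-null and WT oocytes at the 3 stages, on log2(FPKM + 1), with standard errors; filled points passed the limma test and the dashed line is the median of all genes tested. Spire1 lies to the left at every stage (-1.61, -1.17 and -0.67). Actg1, Cfl1, Actb and Pfn1 have filled points to the right at MII (1.93, 1.70, 1.32 and 1.24). Actb also lies to the right in growing and GV oocytes (0.30 and 0.10) and Pfn1 in growing oocytes (0.17), with open points.

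Among the nucleators of straight filaments, Spire1 differed most. It had 51.8 and 61.4 FPKM in WT growing, 57.4 and 48.4 FPKM in WT GV and 23.0 and 21.3 FPKM in WT MII oocytes. The null libraries had 17.8 and 17.9 FPKM, 23.0 and 22.8 FPKM, and 13.57 and 13.59 FPKM. Every null library was below every WT library of its stage, and the highest null value (GV) was about that of the lowest WT stage (MII). The difference was -1.61 in growing, -1.17 in GV and -0.67 in MII oocytes (SE 0.14 each, adjusted p = 2.25e-05, 0.000151 and 0.00394, limma). Spire1 was the only member past 3-fold in growing oocytes, with a WT mean 3.17 times the null mean, and it fell short of 3-fold when the second WT growing library was left out. It remained called lower at all 3 stages without the ERCC factor (-1.33, -0.73 and -0.93 on the log2 scale).

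Fmn2, the formin gene of the oocyte spindle, had 21.1 and 19.7 FPKM in WT growing and 23.6 and 22.4 FPKM in WT GV oocytes, against 13.3 and 11.6 FPKM and 20.1 and 13.2 FPKM in the null. The null libraries were the lower in both stages, the first null GV library coming near to WT. The growing difference passed the test (-0.67 ± 0.18, SE, adjusted p = 0.0137, limma), while the GV difference did not (-0.47, adjusted p = 0.0525). The GV difference passed with the replicate block (0.0323), with a mean of at least 5 FPKM (0.0431), without a trend in the variances (0.0482) and without the first null GV library (-0.76, adjusted p = 0.00530, limma), and it was -0.042 without the ERCC factor. At MII the levels met, with 14.3 and 13.0 FPKM in WT and 13.6 and 13.7 FPKM in the null. The difference of 0.0011 on the log2 scale had a standard error of 0.18. The growing call was lost when the first WT growing library (adjusted p = 0.0820, limma) or the second null growing library (0.0997) was left out, and without the ERCC factor (0.157).

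Spire2 was near the detection limit. It had 1.84 and 2.66 FPKM in WT growing, 1.66 and 2.14 FPKM in WT GV and 0.0514 and 0.155 FPKM in WT MII oocytes, the last standing for about 5 and 19 fragments. In the null it had 1.57 and 2.03 FPKM, 1.20 and 1.72 FPKM, and 0.669 and 0.381 FPKM, of which the MII values stood for about 56 and 44 fragments. The genotypes overlapped before maturation and separated at MII, and the MII difference did not pass the test (0.46 ± 0.18, SE, a size that the added 1 FPKM makes small, adjusted p = 0.0692, limma). Without the ERCC factor it was 1.02 and passed (adjusted p = 0.00548).

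The ARP2/3 genes Actr2 and Actr3 are both needed for 1 complex, and their mRNAs did not run in parallel. Actr2 had 36.9 and 29.4 FPKM in WT growing, 50.1 and 38.5 FPKM in WT GV and 22.6 and 18.6 FPKM in WT MII oocytes, against 21.2 and 16.3 FPKM, 28.7 and 23.2 FPKM, and 19.0 and 16.0 FPKM in the null. The null libraries were lower without overlap before maturation and overlapped with WT at MII. The difference was -0.79 in growing and -0.75 in GV oocytes (SE 0.20 each, adjusted p = 0.0111 and 0.0127, limma) and -0.23 at MII (adjusted p = 0.470). Both calls were lost without the ERCC factor (adjusted p = 0.0518 and 0.261, limma). Leaving out the first WT or the second null library of the stage also ended each call (adjusted p = 0.0970 and 0.105 in growing, 0.115 and 0.0751 in GV oocytes).

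Actr3 showed the reverse order of stages. It had 67.5 and 71.5 FPKM in WT and 55.9 and 58.2 FPKM in null growing oocytes, 62.0 and 52.7 FPKM against 42.6 and 35.2 FPKM at GV, and 11.6 and 12.2 FPKM against 5.06 and 4.54 FPKM at MII. The null was below WT in every pair and the gap widened with stage. The difference was -0.28 in growing (adjusted p = 0.169), -0.55 in GV (0.0124) and -1.16 in MII oocytes (SE 0.15 each, adjusted p = 0.000105, limma). The MII difference was -1.50 without the ERCC factor (adjusted p = 7.12e-06, limma), and the GV difference was then -0.11 and did not pass (0.671). The GV call was also lost when the first WT or the second null GV library was left out (0.0861 and 0.0627) and when only the 4 GV libraries were fitted (0.0871).

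Counted over the 10 genes, 0 were higher and 3 lower in null growing oocytes, against 10.6% and 24.4% of all genes tested. At GV 0 were higher and 4 lower (2.83% and 40.6% of all genes), a share of lower members close to the background. In neither stage was a member higher at an unadjusted p under 0.05 (limma). At MII 4 were higher and 2 lower (21.5% and 10.3% of all genes). Libraries did not overlap in 6 genes higher and 2 lower at MII, where 43.5% and 27.8% of all genes did the same. The median log2 fold change of the members was -0.17, -0.51 and 0.45 at the 3 stages, and that of all genes -0.16, -0.38 and 0.06. Past 3-fold, with means under 1 FPKM set to 1, were Spire1 in growing oocytes (lower, as were 3.54% of genes) and Actg1 and Cfl1 at MII (higher, as were 7.49%). The 4 higher and 2 lower MII calls held in the absence of any single library, with median scaling and without the ERCC factor, the last of which added Spire2 as higher and Actr2 as lower. Without the factor the counts before maturation became 1 higher (Actb) and 1 lower (Spire1) at each stage, and the shares of all genes called higher and lower became 14.9% and 12.3% in growing, 7.19% and 13.5% in GV and 24.6% and 23.4% in MII oocytes. The granulosa and cumulus marker sum was 4.36 and 4.43 FPKM in WT and 6.22 to 7.34 FPKM in null MII libraries, with 14 of the 15 markers under 1 FPKM in both genotypes, and 8.13 to 12.9 FPKM in null against 24.1 to 28.3 FPKM in WT growing libraries and 9.93 to 11.7 against 13.9 to 16.4 FPKM at GV. It was thus lower in the null before maturation and higher at MII, and its part in these differences was not tested.

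From GV to MII, all 10 genes fell in WT and 8 of 10 in the null, as did 93.4% and 68.7% of all genes tested. In WT the change on the log2 scale was -4.59 for Actg1, -3.36 for Pfn1, -2.88 for Cfl1 and -2.70 for Actb, each beyond the median of all genes (-1.28) and the median of those averaging 5 FPKM or more (-2.03). It was -2.17 for Actr3, -1.54 for Cap1, -1.39 for Spire2, -1.21 for Spire1, -1.06 for Actr2 and -0.71 for Fmn2. In the null the median was -0.72 over all genes and -1.19 over those averaging 5 FPKM or more. The change there was -2.098 for Actg1, -1.75 for Pfn1, -0.88 for Cfl1 and -1.48 for Actb. Actr3 had the largest of the members with -2.78. Fmn2 (-0.24) and Cap1 (-0.25) did not pass in the null (adjusted p = 0.253 and 0.172, limma).

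**Figure D3:**
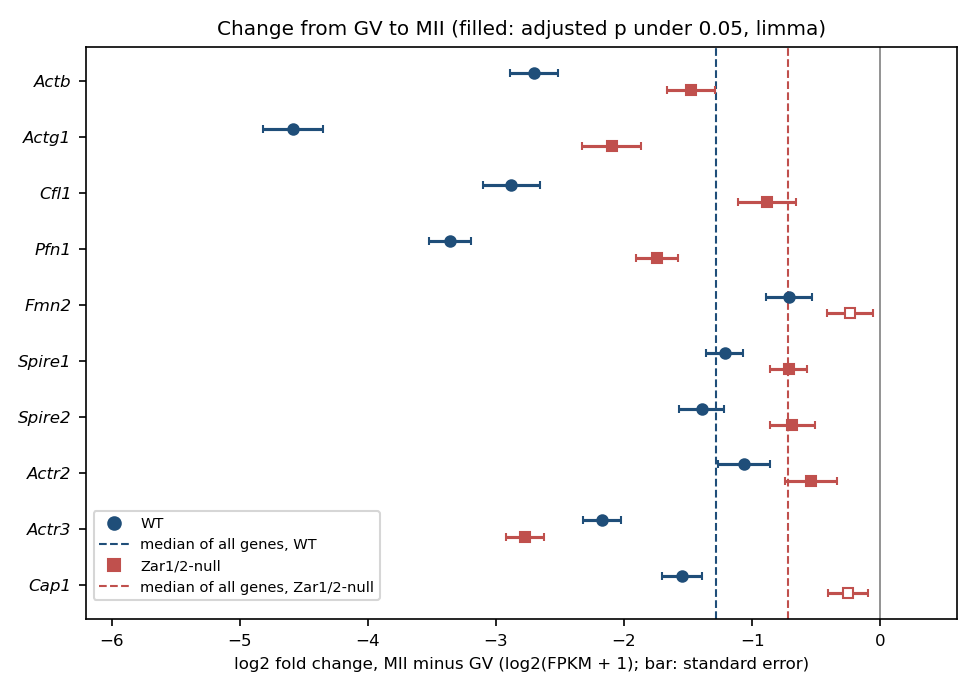
Log2 fold change from GV to MII of each gene on log2(FPKM + 1), with standard errors, in WT (circles) and Zar1/2-null oocytes (squares); filled points passed the limma test, and dashed lines are the medians of all genes (-1.28 in WT and -0.72 in the null). On this ERCC-scaled measure the WT point lies to the left of the null point for 9 of the 10 genes, and Actr3 is the exception. Without the ERCC factor the order turned for Fmn2, Spire1 and Actr2.

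The difference between the genotypes in this change was tested as an interaction. It was positive and passed for 6 of 10 genes (33.9% of all genes) and negative for 1 (0.643% of all genes). The fall was smaller in the null for Actg1 (2.49 ± 0.33, SE, adjusted p = 0.00020), Cfl1 (2.00 ± 0.32, adjusted p = 0.000718), Pfn1 (1.61 ± 0.23, adjusted p = 0.000355) and Cap1 (1.29 ± 0.22, adjusted p = 0.00120, all limma). The others were Actb (1.22) and Spire2 (0.71, adjusted p = 0.0482). Cap1 was near or under 1 FPKM at MII, and its null level was already below WT at GV. Values describe RNA with a poly(A) tail, so loss of RNA and a change of tail cannot be told apart. The median was 0.48 over all genes and 0.615 over those averaging 5 FPKM or more. Actr3 had the negative interaction, -0.61 (adjusted p = 0.0451, limma), and that call was lost when only the groups compared were fitted (adjusted p = 0.0788) and when any of 10 of the 12 libraries was left out. Its size was -1.40 without the ERCC factor (adjusted p = 0.000496). The Spire2 call was lost without the filter on low values (0.147), without a trend in the variances (0.0527) and when any of 7 of the 12 libraries was left out (0.0533 to 0.170). Without the ERCC factor the Actb interaction was 0.62 and that of Spire2 0.98, and neither passed (adjusted p = 0.0709 and 0.0707, limma). The interactions of Fmn2, Spire1 and Actr2 were 0.47, 0.50 and 0.52 with the factor and -0.19, -0.20 and -0.16 without it. They passed on neither scale, so a smaller fall of these mRNAs in the null depended on the factor.

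How far an mRNA fell depended on the scale. The factor of the WT MII libraries was 0.225 and 0.228, and without it the WT median over all genes was -0.43 in place of -1.28 and 19.7% of genes were called higher and 47.6% lower. Without it Fmn2 rose from GV to MII in WT by 0.98, Actr2 by 0.65 and Spire1 by 0.50 on the log2 scale (adjusted p = 0.00113, 0.00754 and 0.00721, limma), while Actg1 (-3.05), Pfn1 (-1.67), Cfl1 (-1.15) and Actb (-1.08) fell on either scale. Unscaled, Fmn2 went from 28.3 and 32.1 FPKM at GV to 63.6 and 57.3 FPKM at MII in WT. The direction of Fmn2, Spire1 and Actr2 over maturation therefore differed between the scales, and that of Actb, Actg1, Cfl1 and Pfn1 in WT did not.

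Ratios within a library need no factor. Fmn2 per Actb was 0.246 ± 0.019 in WT growing, 0.442 ± 0.063 in WT GV and 1.92 ± 0.396 in WT MII oocytes. The null ratios were 0.122 ± 0.0088, 0.293 ± 0.064 and 0.707 ± 0.141. Spire1 per Actb had means in the same order, from 0.689 ± 0.170 to 1.01 ± 0.063 and 3.11 ± 0.614 in WT, and from 0.174 ± 0.0056 to 0.408 ± 0.028 and 0.703 ± 0.139 in the null. Both nucleator mRNAs were above the β-actin mRNA in each WT MII library and below it in each null library. Actr3 per Actb is to be compared between groups only, for the copied stretches given above. It went from 1.09 ± 0.073 at GV to 1.66 ± 0.173 at MII in WT. In the null it went from 0.688 ± 0.042 to 0.247 ± 0.030, in the opposite direction. Cfl1 per Actb stayed near 7 in WT (7.10 ± 1.38, 7.10 ± 0.851 and 6.94 ± 1.54). Actg1 per Actb, to be compared between groups only, was 4.15 ± 0.543 in WT growing oocytes, 2.47 ± 0.033 at GV and 0.613 ± 0.020 at MII, and 1.00 ± 0.043 in null MII oocytes. When all values were scaled to Actb, Spire1 (-2.12), Actr3 (-2.66), Actr2 (-1.66) and Fmn2 (-1.41) were called lower and Actg1 (0.70) higher in null MII oocytes, where 73.3% of all genes were called.

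**Figure D4:**
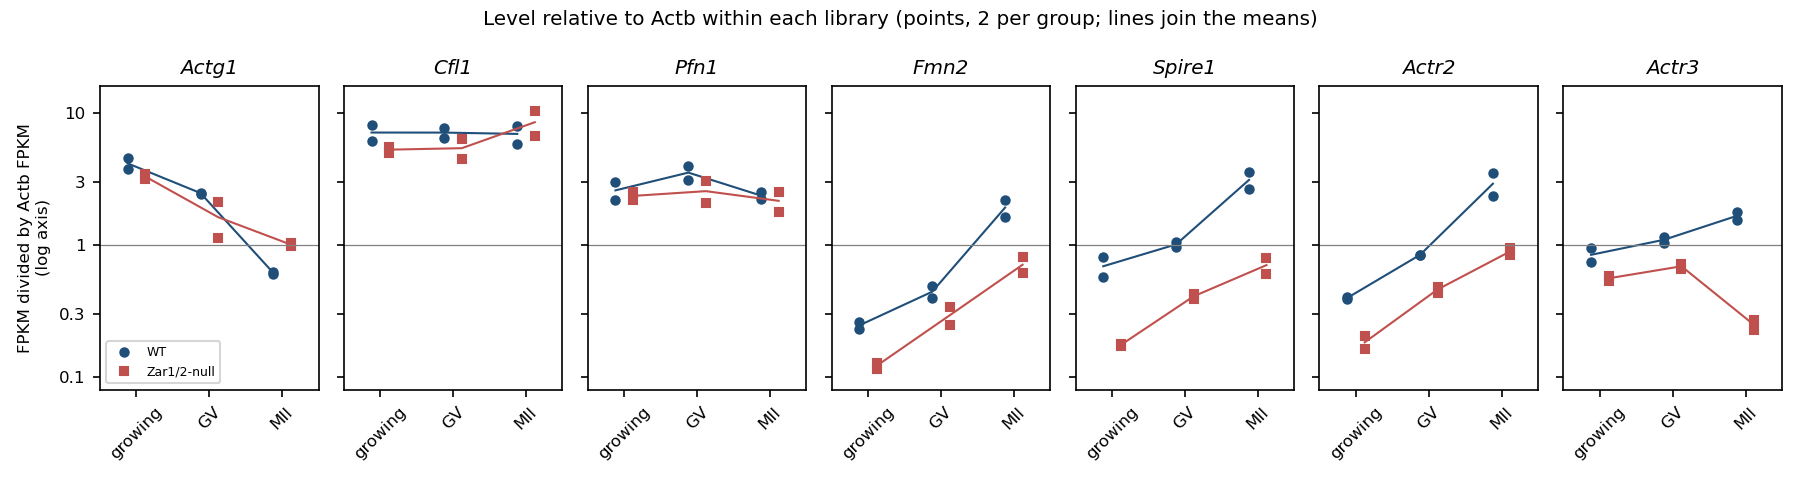
FPKM of 7 genes divided by the FPKM of Actb in the same library, on a log axis, by stage; circles are WT and squares Zar1/2-null libraries, lines join the means of 2, and the grey line marks a ratio of 1. Fmn2, Spire1 and Actr2 stand above 1 in WT MII libraries (means 1.92, 3.11 and 2.91) and below 1 in null MII libraries (0.707, 0.703 and 0.894). Actr3, to be compared between groups only, has means of 1.66 in WT MII and 0.247 in null MII libraries.

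Over growth, from growing to GV oocytes, 3 members fell in WT (Actg1, Actb and Cfl1) and 6 in the null (Cap1, Actg1, Actb, Cfl1, Pfn1 and Actr3), against 28.7% and 55.9% of all genes. The fall of Actg1 was 1.41 on the log2 scale in WT and 1.94 in the null (adjusted p = 0.00251 and 5.89e-05, limma). Cap1 was the only member whose change over growth differed between the genotypes, as did 11.3% of all genes in that direction. It fell by 1.48 in the null and had a change of -0.29 in WT, an interaction of -1.20 ± 0.22 (SE, adjusted p = 0.00751, limma) that was lost without the ERCC factor. The WT calls of Actb and Cfl1 were also lost without either WT growing library.

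Around these 10 genes, 88 further actin genes were listed by role, of which 64 passed the filter. At MII 12 of the 64 were higher and 6 lower in the null (18.8% and 9.38%), at GV 1 and 22 (1.56% and 34.4%), and in growing oocytes 9 and 9 (14.1% each). The shares at MII and GV were close to or below those of all genes given above. Without the ERCC factor the counts out of 64 were 14 higher and 17 lower at MII, against 24.6% and 23.4% of all genes. They were 7 and 3 at GV (7.19% and 13.5% of all genes), and 15 and 1 in growing oocytes (14.9% and 12.3%). The other ARP2/3 subunits had 3 of 7 higher and 1 lower at MII (42.9% and 14.3%). Arpc1a had 0.269 and 0.125 FPKM in WT and 15.04 and 14.03 FPKM in null MII oocytes, and Arpc5 had 0.789 and 0.768 FPKM against 2.43 and 1.90 FPKM. Within the complex Arpc1a, Arpc5 and Arpc5l were higher at MII and Actr3 and Arpc4 lower. Arpc4 was also lower at GV, where WT had 16.2 and 15.5 FPKM and the null 5.40 and 5.95 FPKM.

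The other genes for monomer sequestering and turnover had 1 of 16 higher and 1 lower at MII (6.25% each). The one that was higher, Tmsb10, encodes thymosin β10, which sequesters actin monomers. On log2(FPKM + 1) it had the largest difference of the pathway genes named here. As a ratio of MII means, null over WT, Arpc1a had 73.8, from a WT mean of 0.197 FPKM, and Tmsb10 had 56.3. Tmsb10 went from 958 and 1052 FPKM at GV to 5.88 and 6.14 FPKM at MII in WT, and from 581 and 452 FPKM to 330 and 347 FPKM in the null (5.60 ± 0.16 at MII, SE, adjusted p = 9.82e-10, limma). The myosin light chain genes Myl12a and Myl12b were also higher at MII (1.30 and 1.21 on the log2 scale). At GV the capping protein gene Capza2 (-1.39), the cross-linker gene Actn4 (-1.01), the WAVE complex genes Wasf2 (-1.14) and Abi1 (-0.75), the formin genes Daam1 (-0.83) and Fhod3 (-0.68) and the twinfilin gene Twf1 (-0.68) were lower in the null. Without the ERCC factor only Capza2 (-0.96) and Wasf2 (-0.78) of these 7 passed the test (adjusted p = 0.00160 and 0.0204, limma), while Actn4 had -0.63, Daam1 -0.43, Abi1 -0.31, Twf1 -0.26 and Fhod3 -0.25 (adjusted p = 0.158 to 0.481).

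Courses were also compared across the 12 libraries. Pearson correlations of log2(FPKM + 1) were 0.971 to 0.983 between Actb and each of Actg1, Cfl1 and Pfn1, and 0.940 between Fmn2 and Actr2 and 0.851 between Fmn2 and Spire1, whereas Actb and Fmn2 gave 0.327. With Actb, Actg1, Cfl1 and Pfn1, the nucleator gene Spire2 gave 0.926 to 0.969, Cap1 0.882 to 0.923 and Actr3 0.764 to 0.859. Actr3 gave 0.516 to 0.692 with Fmn2, Actr2 and Spire1. The libraries of a group and the factor are shared by all genes, so these values describe the libraries only. Among 4326 other genes (mean of 10 FPKM or more), those most like Actb were Rps23 (0.994), Txndc12 (0.993) and Scg3 (0.992), and those most like Fmn2 were Stard13 (0.945), Cd200 (0.936) and Gnrh1 (0.917).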

How the data were processed

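Oocytes were lysed directly and cDNA was primed with oligo-dT by Smart-seq2, so values describe RNA with a poly(A) tail. The authors trimmed reads to 50 bases, mapped them to mm9 with TopHat2 2.1.1, kept unique hits and computed FPKM with Cufflinks 2.2.1, and deposited FPKM multiplied by a factor from the ERCC share. Dividing a library by its factor leaves numbers of 6 significant digits, and each factor was found in this way. Each replicate number was scaled to its own WT growing library. No counts were used. Depth was estimated from the ratios of low values between libraries and from 24 of 65 single-exon genes, so fragment numbers are approximate.

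Groups were taken from the labels. On the scale log2(FPKM + 1), a linear model with a mean for each group used every library (limma 3.58.1, R 4.3.3, eBayes with an intensity trend, two-sided). The 11502 genes that reached 1 FPKM in any library were tested, and Benjamini-Hochberg adjusted p-values under 0.05 were called. Fold changes on this scale understate those of low genes. An exact permutation test of 2 against 2 libraries cannot go below 0.333, so the spread came from all groups. The study set a 3-fold limit, which was used here on mean FPKM as a description, with means under 1 FPKM set to 1. On simulated data with 200 of 11502 genes changed 3-fold in null MII oocytes, 96% were recovered, and 5 unchanged genes were called. The changed genes were drawn from those with a WT MII mean of at least 5 FPKM, and errors were independent. The share recovered thus does not describe genes below that level, such as Actg1, Cap1 and Spire2. Nor does it describe differences under 3-fold, such as those of Actb and Pfn1 at MII, or data in which more genes change.

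Gene structure and sequence came from GENCODE for mm9, the longest coding transcript of each symbol. It matched 93.6% of the genes tested. The members, lists and tests were chosen with earlier results of these data known. Named genes are all members, up to 2 per actin list with the largest called genotype difference (10 FPKM or more in the higher group, no overlap), and the 3 genes most correlated with Actb and with Fmn2. Arpc5 and Arpc5l were named after their values were seen. Alternatives were no ERCC scaling, median scaling, scaling to Actb, a pseudocount of 0.1 FPKM, a mean of at least 5 FPKM, no filter, a replicate block, no trend, only the groups compared and leaving out each library.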

Additional observations from a re-analysis of the deposited data

Results flagged for a closer look

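The change from GV to MII differed between the genotypes by an interaction test (limma with Benjamini-Hochberg adjustment) in 7 members. The null minus WT difference of the log2 change was 1.22 for Actb, 2.49 for Actg1, 2.00 for Cfl1, 1.61 for Pfn1, 0.71 for Spire2, 1.29 for Cap1 and -0.61 for Actr3. From growing to GV it differed for Cap1 alone (-1.20). All genes tested had a median of 0.48 in the first of these differences and of -0.23 in the second.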

How the results depend on the processing

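The 6 genotype calls at MII kept their direction and passed the test under every alternative except scaling to Actb. The cause of the changes below was not tested. Shares of all genes called are given in brackets. Without ERCC scaling, members called were 1 higher and 1 lower in null growing oocytes and 1 and 1 at GV (shares given above). Over growth they were 1 and 1 in WT (3.66% and 3.23%) and 3 and 2 in the null (14.3% and 21.3%). Over maturation they were 3 higher in WT (19.7%), and 2 higher and 4 lower in the null (19.5% and 40.5%). In the interaction over growth 0 were lower (3.72%). The 3-fold rule then gave 0 lower in growing oocytes and 1 higher at MII. With median scaling the counts were 2 higher in growing oocytes (19.9%), and 1 higher and 1 lower at GV (14.9% and 10.5%). Over growth they were 1 and 1 in WT (8.16% and 5.36%) and 3 and 2 in the null (24.8% and 15.4%). Over maturation they were 5 and 4 in WT (65.6% and 19.7%) and 6 and 2 in the null (61% and 18.5%). The interaction over maturation had 3 higher (9.31%), and that over growth 1 higher and 0 lower (4.36% and 2.96%). These counts share the limit of median scaling given below. With scaling to Actb, which takes Actb itself out of the tests, the counts were 1 higher and 4 lower at MII (11.2% and 62.1%). Over growth they were 2 and 0 in WT (8.91% and 0.835%) and 3 and 2 in the null (16.7% and 7.95%). Over maturation they were 4 and 2 in WT (44.2% and 29.3%) and 5 and 2 in the null (28.6% and 27.1%). The interaction over maturation had 1 higher (10.98%), and that over growth 0 lower (0.765%).

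The median of all genes over WT maturation was -1.28 with ERCC scaling, -0.43 without it, 0.93 with median scaling and 0.27 with scaling to Actb. Median scaling subtracted each library's median from log2(FPKM + 1), so the added 1 FPKM moved as well. Under it, low genes such as Spire2 and Cap1 can seem to rise over maturation. Their directions, and the median of 0.93, are therefore not those of FPKM divided by a factor. Directions were followed for the changes called in the main fit and for the genotype differences of Actb and Fmn2. Changes not called there are left out of the list below. Among them, Fmn2 over null maturation turned from -0.24 to 0.79 without ERCC scaling (adjusted p = 0.00550, limma) and to 1.22 with scaling to Actb. Cap1 over null maturation turned from -0.25 to 0.44 without ERCC scaling (adjusted p = 0.148, limma). Directions that turned, as log2 fold changes, were as follows. Without ERCC scaling, WT maturation gave 0.98 for Fmn2, 0.50 for Spire1 and 0.65 for Actr2, null maturation 0.17 for Cfl1, 0.30 for Spire1 and 0.49 for Actr2, and the MII genotype difference -0.23 for Fmn2. With median scaling, WT maturation gave 1.501 for Fmn2, 1.00 for Spire1, 0.82 for Spire2, 1.15 for Actr2, 0.042 for Actr3 and 0.67 for Cap1. Null maturation gave 0.54 for Cfl1, 0.71 for Spire1, 0.73 for Spire2 and 0.88 for Actr2, null growth 0.065 for Actr3, the interaction over maturation -0.086 for Spire2, and Fmn2 had 0.016 at GV and -0.30 at MII between the genotypes. With scaling to Actb, WT maturation gave 2.06 for Fmn2, 1.59 for Spire1, 1.74 for Actr2, 0.59 for Actr3 and 0.029 for Cap1, null maturation 0.64 for Cfl1, 0.75 for Spire1, 0.0068 for Spire2 and 0.93 for Actr2, growth 0.0072 for Cfl1 in WT and 0.019 for Cfl1, 0.099 for Pfn1 and 0.29 for Actr3 in the null, and MII -0.15 for Pfn1 and -1.41 for Fmn2.

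The deviations of same-numbered libraries correlated across genes at -0.11 to 0.194 (median 0.0734), above 0.1 in 5 of 15 pairs of groups. Such a correlation cannot show a shift shared by all genes of a replicate number. Scaling each replicate number to its own WT growing library could give such a shift. The main fit did not take the numbers as pairs, and this check does not decide whether it should. The replicate block lost no member's call and gained 7. These were Fmn2 and Pfn1 as lower at GV (6 in place of 4), Cap1 and Spire2 as higher at MII (6 in place of 4), and Actr2 as higher over growth in WT (1), in the null (1) and in the interaction over maturation (7 in place of 6). Without the filter on low values 1 member was lower over growth in WT and 1 higher in the null. Without a trend 1 was higher over growth in the null. With a mean of at least 5 FPKM, 0 were lower in the interaction over growth, since Cap1 was then not tested, and with only the groups compared 0 in that over maturation. Leaving out 1 library at a time gave 1 to 3 members lower in growing oocytes, 2 to 5 at GV, 1 to 3 over growth in WT, 0 to 1 higher over growth in the null and 0 to 1 lower in the interaction over maturation. The 3-fold rule gave 0 to 1 lower in growing oocytes and 1 to 3 higher at MII, the 1 being without the first WT MII library. The Actb difference at GV was -0.078 to 0.29 and the Fmn2 difference at MII -0.061 to 0.063. With 2 libraries a group, a lone library is assumed to vary like the others.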
